A study of Mus musculus with 2 samples.

Results

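Genes that mark the choroid plexus and the leptomeninges were examined in the cerebral cortex of mice with a presenilin conditional double knockout (PS cDKO) and of control mice. The choroid plexus is the secretory epithelium of the brain ventricles and the leptomeninges are the fibroblast membranes on the brain surface. Neither is part of the cortex, so their transcripts also record how much of these neighbours came with a dissected piece of tissue. The 9 genes were Ttr, Enpp2, Ptgds, Igf2, Igfbp2, Col1a1, Col1a2, Col3a1 and Dcn, and every probe set that the platform annotation pairs with only that gene was taken. No probe set was paired with Enpp2, the secreted enzyme autotaxin, which was not analysed here. The other 8 genes had 15 probe sets among the 12418 of the array, and they are 8 of the 8251 genes with a probe set of their own. The set was chosen by names known for these tissues and selected on intensity ratios of these same arrays, in which Ttr and Igfbp2 were among the lowest genes, so all values below are a description and none is a test.

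Total RNA was measured on 1 oligonucleotide array of PS cDKO cortex and 1 array of control cortex, with mice of both groups at 6 months of age. The labels name the mutation only as a conditional double knockout of presenilin, the catalytic subunit of the γ-secretase protease. The alleles, the promoter that drives recombination, the strain, the sex, and whether an array held RNA of 1 mouse or of several are not given in the labels. With 1 array per group there is no replicate error and no p-value can be had, so the variation between mice is unknown for every difference below. The deposited values are linear intensities. The PS cDKO intensities given below are scaled by 0.034 on the log2 scale, and intensities under a floor of 232 were raised to it before ratios were formed. Where 1 array was at the floor the ratio is only a bound, and where both were there is none. Log2 ratios are PS cDKO over control. Excitatory cortical neuron markers were above the floor on both arrays in 12 of the 14 genes with a probe set, among them Nrgn, a calmodulin-binding protein, at 1356 in PS cDKO cortex and 2014 in control cortex. Neurod6 and Cux2, also on that list, were under the floor on both arrays.

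Choroid plexus epithelium secretes transthyretin, the product of Ttr, which carries thyroid hormone and, through retinol-binding protein, vitamin A in the cerebrospinal fluid. Ptgds makes prostaglandin D2 and its protein is abundant in the cerebrospinal fluid. It is made by leptomeninges, choroid plexus and oligodendrocytes. In the adult rodent brain Igf2, an imprinted growth factor, is expressed mainly by choroid plexus and meninges, and Igfbp2 binds IGFs and is made by choroid plexus, meninges and astrocytes. Col1a1, Col1a2 and Col3a1 encode the chains of fibrillar collagens I and III, and Dcn encodes decorin, a small proteoglycan that binds collagen fibrils. These 4 genes mark fibroblasts of the meninges and of vessel walls.

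Ttr and Igfbp2 were lower in PS cDKO cortex, and Col1a1, Col1a2, Igf2 and Ptgds differed little. Col3a1 and Dcn gave only bounds, which do not show how much they differed. Of the 8 genes 2 were at least 1.5-fold lower and 0 were at least 1.5-fold higher. Among all 5885 genes with a ratio or bound 0.816% were at least 1.5-fold lower and 1.12% at least 1.5-fold higher, which is 48 lower and 66 higher genes. With the intensities as deposited the split was 66 lower and 51 higher. Because these same ratios were in view when the genes were named, nothing is read from the members' share. At 2-fold the count of members was 0 in each direction, with 0.102% of all genes past that fold in each. Of the 15 probe sets 9 were above the floor on both arrays, 2 gave a bound and 4 were under the floor on both.

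**Figure D1:**
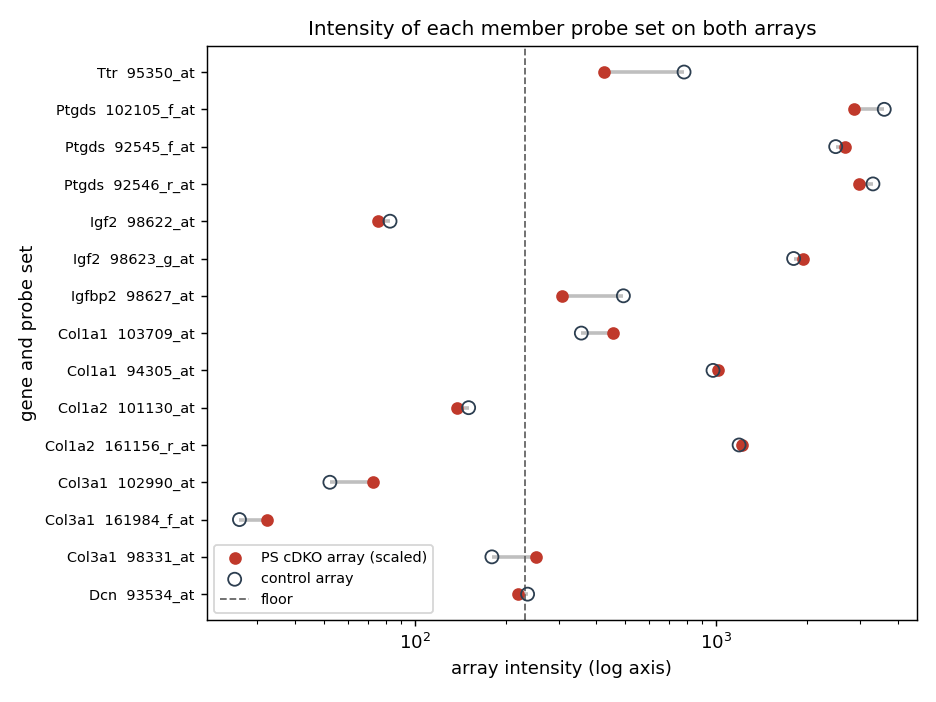
Intensity of each of the 15 probe sets on a log axis, with the PS cDKO array (scaled) as filled points and the control array as open circles; the dashed line is the floor of 232 and the grey bars join the 2 arrays. The widest gaps above the floor are those of Ttr (425 against 782) and Igfbp2 (308 against 492).

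The single Ttr probe set had an intensity of 425 in PS cDKO cortex and 782 in control cortex. The log2 ratio was -0.88, which is 1.84-fold lower in PS cDKO cortex. It was the 17th lowest of 7810 probe sets with a ratio or bound. In the tenth of these probe sets that is nearest to it in signal, 6 of 781 differed as much, Ttr included. The only repeated measurement of a gene on these arrays is a further probe set. In 749 genes a pair of probe sets lay above the floor on both arrays. From the brightest pair of each, the log2 ratio of an individual probe set had an SD of 0.21. Probe sets at the floor are not in it. The Ttr difference was 4.17 times that SD, which holds no variation between mice or dissections. Ttr was named with its ratio on these arrays known, so its rank and this multiple are a description and no test. Ttr had no further probe set against which to set its value.

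The 3 probe sets of Ptgds did not agree in direction. The first had 2870 in PS cDKO cortex and 3613 in control cortex, a log2 ratio of -0.33. Another had 2972 in PS cDKO cortex and 3314 in control cortex (-0.16), and the remaining one had 2670 in PS cDKO cortex and 2493 in control cortex (0.10). Their mean was -0.13, or 1.09-fold lower in PS cDKO cortex, well under the 1.5-fold line. All 3 carry a suffix letter with which the array maker marked probes chosen under relaxed rules, some of which may match related transcripts.

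The IGF genes differed from each other. Igfbp2 had an intensity of 308 in PS cDKO cortex and 492 in control cortex, a log2 ratio of -0.68 or 1.60-fold lower in PS cDKO cortex. It stood 48th from the lowest of the 7810 probe sets, and 13 of the 781 probe sets nearest in signal differed as much. Its PS cDKO intensity was not far above the floor of 232, so if the floor is set at the 60th percentile its value is a bound of at least 1.22-fold lower. The Igf2 probe set above the floor, which carries a suffix letter, had 1944 in PS cDKO cortex and 1808 in control cortex, a log2 ratio of 0.10. The other, designed to the same sequence record, had 75.3 in PS cDKO cortex and 82.7 in control cortex, both under the floor. So of this growth factor and its binding protein only the binding protein was lower by 1.5-fold or more.

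The 250 bases before the transcription start are shown for Igfbp2, which was lower, and for Col1a2, whose only probe set above the floor lay near the control level. The regulatory sequence of a lower gene can so be read beside that of a gene with a small ratio. Entries for 5 of the 9 genes were found in the RefSeq promoter table of build GRCm38.p6. The windows are chr1:72824230-72824479 (plus strand, the more upstream of 2 starts) for Igfbp2 and chr6:4505368-4505617 (plus strand) for Col1a2. Capitals mark the GC box letters GGGCGG and the CCAAT box letters CCAAT on either strand; TATAAA was searched too.
Igfbp2: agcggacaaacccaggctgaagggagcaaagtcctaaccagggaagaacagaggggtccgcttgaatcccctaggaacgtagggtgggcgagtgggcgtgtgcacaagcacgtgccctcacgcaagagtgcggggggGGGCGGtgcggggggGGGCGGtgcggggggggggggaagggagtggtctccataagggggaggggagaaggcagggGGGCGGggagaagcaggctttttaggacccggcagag
Col1a2: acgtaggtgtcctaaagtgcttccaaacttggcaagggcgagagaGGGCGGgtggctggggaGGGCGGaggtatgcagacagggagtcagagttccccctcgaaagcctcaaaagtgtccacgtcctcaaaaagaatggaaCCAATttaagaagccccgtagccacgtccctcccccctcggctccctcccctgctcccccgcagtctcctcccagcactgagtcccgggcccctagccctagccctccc
The Igfbp2 window held 3 GC boxes and was 67.2% G and C. The Col1a2 window held 2 GC boxes and 1 CCAAT box and was 62% G and C. TATAAA was in neither window, and the motifs did not overlap one another. Among 32851 windows of the same length, 32.7% held a GC box, 33.8% a CCAAT box and 12.4% TATAAA, so these letters are common and their presence is a description only.

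**Figure D2:**
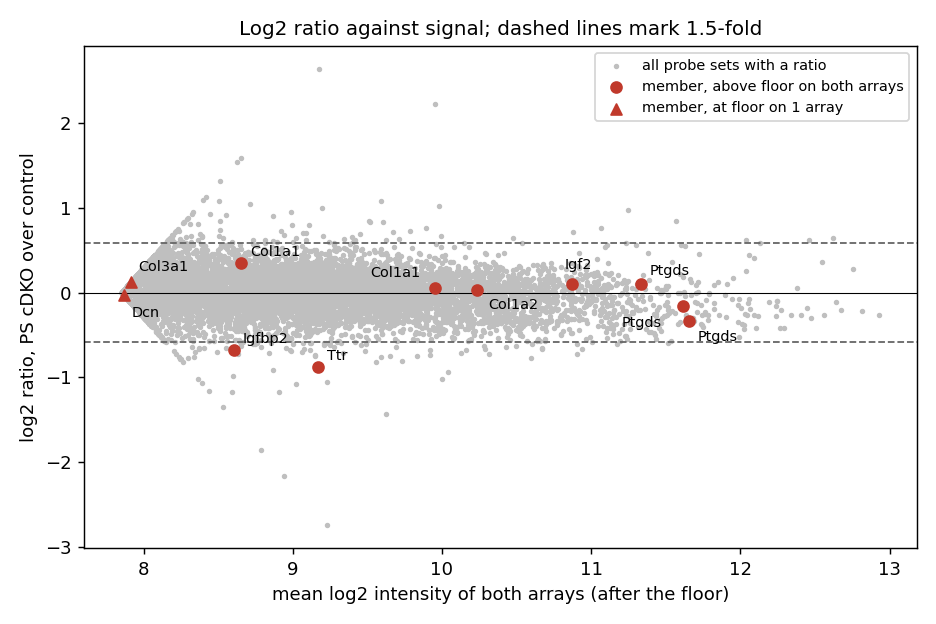
Log2 ratio of PS cDKO over control (vertical axis) against the mean log2 intensity of both arrays (horizontal axis) for the 7810 probe sets with a ratio or bound in grey, with the probe sets of the members in red; triangles are at the floor on 1 array and dashed lines mark 1.5-fold. Ttr at -0.88 and Igfbp2 at -0.68 lie under the lower line, and the other 9 red points lie between the lines.

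The collagen I genes were at or slightly above the control level. The Col1a1 probe sets had 454 and 1010 in PS cDKO cortex, against 357 and 976 in control cortex, with log2 ratios of 0.35 and 0.05 and a mean of 0.20. Both ratios were under the 1.5-fold line, and the probe sets did not give the same size of difference. Col1a2, the partner chain of collagen I, had 1221 in PS cDKO cortex and 1192 in control cortex, a log2 ratio of 0.04. Its second probe set was under the floor on both arrays, at 138 in PS cDKO cortex and 151 in control cortex. The Col1a2 value thus rests on a single probe set, which carries a suffix letter, while the dim one carries none.

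Col3a1 had 253 in PS cDKO cortex and 180, under the floor, in control cortex, which gives at least 1.09-fold higher. Its other probe sets were far under the floor, at 72.7 and 32.4 in PS cDKO cortex and 52.3 and 26.2 in control cortex. All 3 Col3a1 intensities were thus higher in PS cDKO cortex, but 2 of them lie where intensity cannot be read as a level. Dcn had 219 in PS cDKO cortex, under the floor, and 237 in control cortex, so it was at least 1.02-fold lower. Col3a1 and Dcn were thus hardly above the floor in this tissue.

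Set side by side, the mean log2 ratio was -0.51 for Ttr and Ptgds, -0.29 for Igf2 and Igfbp2, and 0.12 for Col1a1 and Col1a2. Ptgds is also made by leptomeninges and oligodendrocytes, and Igf2 and Igfbp2 are made by both choroid plexus and meninges. Neither the first mean nor the second stands for a single tissue. The first mean rests on Ttr and the second on Igfbp2, since their partners were at -0.13 and 0.10. Over all 5885 genes the median was 0.01. The 8 members had a median of 0.0022, with bounds counted at their limit. A lower Ttr or Igfbp2 in bulk tissue cannot tell fewer cells that make the transcript from less of it per cell.

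The lower Ttr was not accompanied by lower values across the other genes of the choroid plexus epithelium list that could be measured. Of 40 further genes of that list 26 had a probe set and 18 had a ratio or bound. Of these 15 were higher and 3 lower in PS cDKO cortex, with a median log2 ratio of 0.11, and 0 were at least 1.5-fold different in either direction. Over all genes 51.9% were higher. The intensities of the 18 genes, raised to the floor where needed, summed to 10580 in PS cDKO cortex and 9672 in control cortex. The brightest of them, Cab39l, gave 2134 and 2032 of these sums. No detection calls were used, so these intensities are not taken as proof of choroid plexus transcripts. The other 8 genes with a probe set were under the floor on both arrays, and defining genes of the epithelium were among them. How much choroid plexus was in either piece of tissue was not tested.

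Folr1, the folate receptor that loads folate into the cerebrospinal fluid, had a mean of 673 in PS cDKO cortex and 623 in control cortex, a log2 ratio of 0.10 with both probe sets higher. Cldn2, a tight junction protein of leaky epithelia, had 637 in PS cDKO cortex and 504 in control cortex (0.34), and Krt18, an epithelial keratin, 406 in PS cDKO cortex and 274 in control cortex (0.57). Krt18 had the largest ratio of the list, and its other probe set was under the floor on both arrays. Elsewhere on the list the keratin Krt8 was at 0.007, the claudin Cldn1 at -0.014 and the transporter Slc4a2 at -0.011. Folr1, Cldn2 and Krt18 thus do not stand for the whole list.

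The water channel Aqp1 was at 0.22 on the probe set with a full ratio (650 in PS cDKO cortex, 558 in control cortex). A further Aqp1 probe set, at 221 in PS cDKO cortex and 306 in control cortex, went the other way with a bound of -0.40. The lowest gene of the list above the floor on both arrays was Atp1b1, a sodium pump subunit that neurons also make, at -0.22. A further Atp1b1 probe set, at 284 in PS cDKO cortex and 207 in control cortex, went the other way with a bound of 0.29.

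Several defining genes of the epithelium were under the floor on both arrays. Kl, which encodes klotho, had 31.2 in PS cDKO cortex and 82.0 in control cortex. Htr2c, a serotonin receptor abundant in choroid plexus, had 50.4 in PS cDKO cortex and 53.4 in control cortex. Slc4a5, a bicarbonate transporter, had 43.4 in PS cDKO cortex and 19.3 in control cortex, and Calml4 had 183 in each. These intensities are too low to give a ratio.

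**Figure D3:**
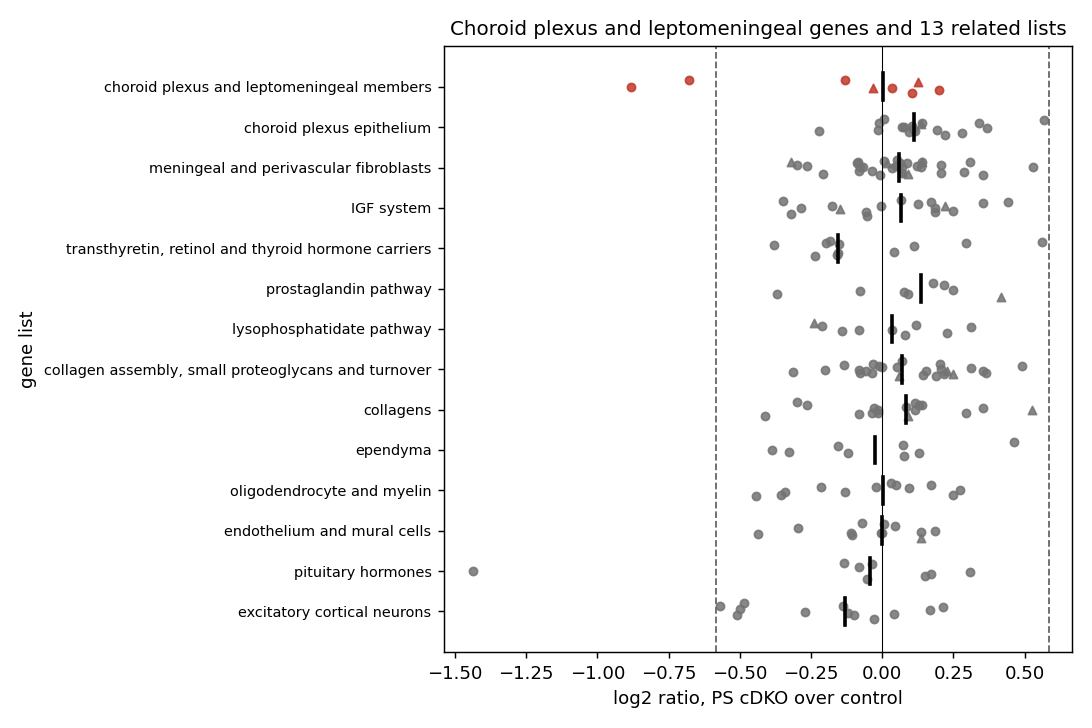
Log2 ratio of PS cDKO over control for each gene with a ratio or bound, for the members in red at the top and for 13 related gene lists in grey; circles are above the floor on both arrays, triangles are bounds, black bars are medians and dashed lines mark 1.5-fold. Ttr and Igfbp2 lie left of the lower line, while the medians of the choroid plexus epithelium (0.11) and meningeal fibroblast (0.06) lists lie near 0.

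Meningeal and perivascular fibroblast genes were also near the control level. Of 46 further genes with a probe set 32 had a ratio or bound, 21 higher and 11 lower in PS cDKO cortex, with a median of 0.06 and 0 at least 1.5-fold different. Their intensities summed to 20218 in PS cDKO cortex and 19715 in control cortex. Slc22a6, an organic anion transporter of the meninges, had 1275 in PS cDKO cortex and 1173 in control cortex (0.12), and Slc6a13, a GABA and taurine transporter, 1059 in PS cDKO cortex and 997 in control cortex (0.09). Both transporters thus lay close to the control array.

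Bgn, a proteoglycan related to decorin, was at 0.07, and Ogn and Fmod, of the same family of leucine-rich proteoglycans, were at -0.04 and -0.08. Fbln2, an extracellular matrix protein, was the highest at 0.53 (341 in PS cDKO cortex, 236 in control cortex), with the control intensity next to the floor. Col5a2, a chain of collagen V, was the lowest of those above the floor on both arrays at -0.30, whereas Col5a1, its partner chain, was at 0.35. The defining genes Lum, Aldh1a2, Foxc1 and Zic1 were under the floor on both arrays.

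The wider collagen and collagen-handling lists also lay near the control level. Other collagens had 9 genes higher and 8 lower in PS cDKO cortex, with a median of 0.08, or -0.01 over the 15 above the floor on both arrays. Col4a1 and Col4a2, the basement membrane chains of vessels and meninges, were at -0.01 and 0.29. Of the genes of collagen assembly, small proteoglycans and turnover 15 were higher and 10 lower, with a median of 0.07. P4hb, a subunit of the enzyme that hydroxylates collagen proline, was at -0.03. Timp1, an inhibitor of matrix metalloproteinases, was at 0.36 (1221 in PS cDKO cortex, 955 in control cortex) and the gelatinase Mmp2 at 0.49 (327 in PS cDKO cortex, 233 in control cortex), and neither reached 1.5-fold.

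In the rest of the IGF system 9 genes were higher and 8 lower in PS cDKO cortex, with a median of 0.07, or -0.06 with no floor, and 0 at least 1.5-fold different. Igf1, the other IGF ligand, had a mean of 935 in PS cDKO cortex and 844 in control cortex (0.17), and its receptor Igf1r 345 in PS cDKO cortex and 303 in control cortex (0.19). The other 5 binding proteins with a ratio or bound lay between -0.18 and 0.22. Igfbp3 was at 0.18, Igfbp4 at -0.05 and Igfbp6 at -0.18, while Igfbp7 had a bound of 0.22 and Igfbp1 one of -0.15. Downstream, the kinases Akt1 and Akt2 were at -0.29 and -0.35, and Irs1, an adaptor of the IGF and insulin receptors, was at 0.25. Igf2r, the receptor that clears Igf2, was under the floor on both arrays, at 135 in PS cDKO cortex and 165 in control cortex.

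Genes that share a ligand or product with the members were examined as well. Of 11 genes on the list of retinol and thyroid hormone transport and action, 7 were lower and 4 higher in PS cDKO cortex, with a median of -0.15. The brightest of the 7, Mt3 at -0.16, encodes a metallothionein and has no known part in that transport or action. Rbp4, the retinol carrier that travels bound to transthyretin, had 416 in PS cDKO cortex and 490 in control cortex (-0.24). The thyroid hormone receptor Thra was at -0.20, whereas Thrb was at 0.56. With no floor the median of this list was 0.07, so its sign depends on which low intensities are taken in.

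The prostaglandin list had 6 higher and 2 lower of 8, with a median of 0.13. Over the 7 above the floor on both arrays the median was 0.09. Lcn2, a lipocalin that is not a prostaglandin gene, was among the 6 at 0.25. A further 11 genes of the list with a probe set were under the floor on both arrays. Ptgdr2, a receptor for prostaglandin D2, was at -0.08. Lysophosphatidate genes, which stand near the enzyme made from Enpp2, had 5 higher and 4 lower of 9, with a median of 0.04. Among them the receptor Lpar1 had a bound of -0.24 (218 in PS cDKO cortex, 274 in control cortex) and the phosphatase Plpp3 was at 0.04. Neither list had a gene at least 1.5-fold different.

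Markers of other cells and tissues that share transcripts with the members were set beside them. Oligodendrocyte and myelin genes, relevant to Ptgds, had 6 higher and 6 lower of 12, with a median of 0.004 and sums of 8280 in PS cDKO cortex and 8682 in control cortex. Mbp, a major myelin protein, was at 0.17 and Mobp at -0.44. Ependymal genes, from the cells that line the ventricles next to the choroid plexus, had 4 higher and 4 lower, with a median of -0.02. Foxj1, the regulator of motile cilia, had 1180 in PS cDKO cortex and 1123 in control cortex (0.07). Endothelial and mural genes, which share collagens with the meninges, had 6 higher and 6 lower, with a median of -0.0026 and sums of 6432 in PS cDKO cortex and 6454 in control cortex.

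Pituitary hormone genes had 3 higher and 5 lower of 8, with a median of -0.04. Tshb, the thyrotropin subunit, had 481 in PS cDKO cortex and 1302 in control cortex (-1.44), and was the only gene of the 13 lists whose gene value was at least 1.5-fold different. By probe set, a Kcnab2 probe set that does not enter its gene's value was lower still, with a bound of -1.86 (186 in PS cDKO cortex, 842 in control cortex), and 1 of the 4 Mobp probe sets was at -0.68; Kcnab2, a potassium channel subunit, is on the excitatory neuron list. Lhb, a gonadotropin subunit known from the pituitary, had 2820 in PS cDKO cortex and 2539 in control cortex. No detection calls were used, so an intensity above the floor is not taken here as proof of a transcript. Markers of excitatory neurons were lower in 9 of 12 genes, with a median of -0.13 and sums of 10485 in PS cDKO cortex and 13213 in control cortex. The part of any of these lists in the values of Ttr and Igfbp2 was not tested.

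The processing moved Ttr little. Its log2 ratio lay between -0.91 and -0.88 under all 8 alternatives to the scaling, the floor and the use of probe sets. Igfbp2 lay between -0.72 and -0.68 except for the bound given above. Igf2 lay between -0.02 and 0.19, Col1a2 between -0.05 and 0.08 and Col1a1 between 0.05 and 0.20 where they had a value. Igf2 and Col1a2 changed sign with no floor, and Col1a2 also when the floor was at the 20th percentile, where their dim probe sets entered the mean. Ptgds lay between -0.33 and -0.01.

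**Figure D4:**
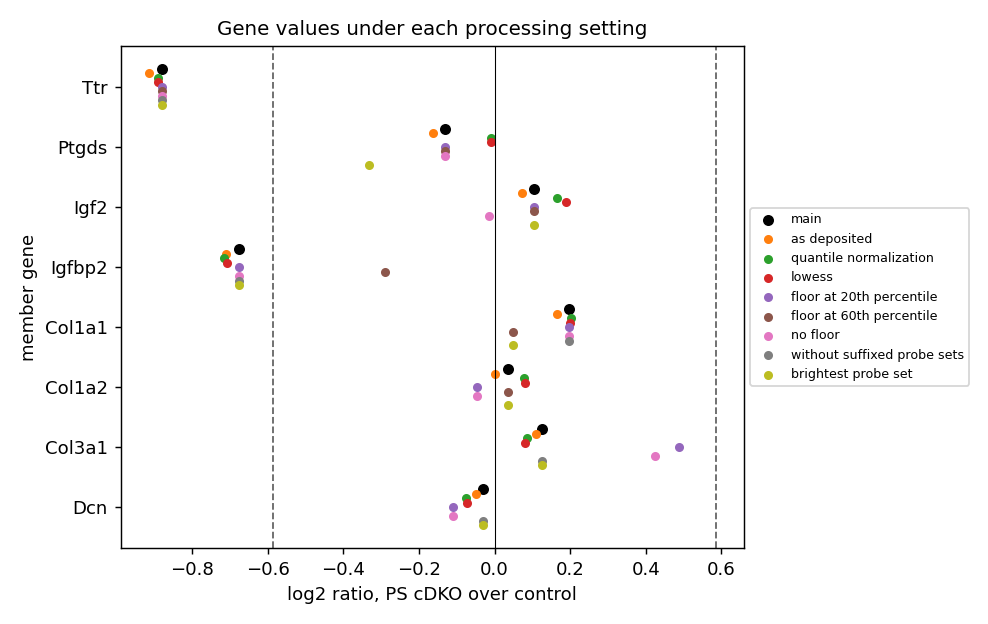
Log2 ratio of PS cDKO over control for each member gene under the setting used in the text (black) and 8 alternatives (colours); dashed lines mark 1.5-fold. Ttr stays near -0.9 in all of them, Igfbp2 leaves the region under the lower line only under the floor set at the 60th percentile, and Col3a1 shifts toward higher values, to 0.49 and 0.42, with a lower floor or none.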

How the data were processed

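Cortical total RNA was hybridised to 1 PS cDKO and 1 control array. The deposited table holds 1 linear intensity per probe set and array. The software, summary method, background step and scaling behind it are not given in the labels or the file. Deposited medians were 305 on the PS cDKO array and 300 on the control array, with 18 negative intensities on the PS cDKO array and 13 on the control array. The number of arrays limits the precision.

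Probe sets were named through the platform annotation, with symbols updated by gene ID through RefSeq's table for GRCm38.p6 (8237 of 8251 genes matched). In it 10829 probe sets had 1 symbol, 396 several and 1193 none. The PS cDKO array was scaled to a median log2 ratio of 0 over probe sets with a rank in the upper part of each array (above its median). The floor was the 40th percentile of all scaled intensities of the 2 arrays. A gene's value is the mean log2 ratio of those of its probe sets that exceed the floor on each array, or of its bounds if it has no other. Suffixed probe sets have a letter (f, r, i, s, x or g) before the ending _at.

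Genes were counted at 1.5-fold, with no test, since each group holds 1 array. The members and the 13 lists were chosen with earlier results of these data known, and members were left out of the lists. All members, and any gene of the choroid plexus, meningeal and IGF lists with a ratio or bound, could be named. Genes of those lists under the floor on both arrays (Kl, Htr2c, Slc4a5, Calml4, Lum, Aldh1a2, Foxc1, Zic1 and Igf2r) were also named, after their values were seen. Of each other list the rule took the 3 brightest genes and the one with the largest ratio. Genes named beyond it (Rbp4, Lpar1, Plpp3, Col4a1, Col4a2, Kcnab2, Neurod6, Cux2 and Lcn2) were chosen after their values were seen. The ratio step was tested on simulated data. Python 3.11.15, numpy 2.4.6, pandas 2.3.3, statsmodels 0.14.6 and matplotlib 3.10.9 were used.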

Additional observations from a re-analysis of the deposited data

How the results depend on the processing

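With 1 array per group no array could be left out. No paired analysis was possible because there is 1 array per genotype. The alternatives were the intensities as deposited, quantile normalization, lowess (span 0.3), a floor at the 20th or the 60th percentile or none, leaving out suffixed probe sets, and the brightest probe set of a gene. A value was counted as moved when it shifted by more than 0.21, the SD of the log2 ratio of an individual probe set. Of the 59 values of member genes under alternatives 56 did not move, and of 104 list medians 103 did not. Igfbp2 was at -0.29, a bound, under the floor at the 60th percentile, which left 1 member gene at least 1.5-fold lower. Col3a1 was at 0.49 under the floor at the 20th percentile and 0.42 without any. The median of the retinol and thyroid hormone list was 0.065 with no floor. The medians of the IGF, ependymal, oligodendrocyte and endothelial lists also changed sign in at least 1 setting, within -0.06 to 0.08, -0.06 to 0.07, -0.03 to 0.06 and -0.04 to 0.02. At 2-fold 0 member genes were lower. Over all probe sets, 92 were at least 1.5-fold lower and 102 higher. The balance turned under the other scalings, with 126 lower and 79 higher as deposited, 102 and 90 after quantile normalization and 102 and 92 after lowess. The counts were 13 lower and 11 higher at 2-fold, 147 and 266 under the floor at the 20th percentile, 60 and 45 at the 60th, and 337 and 787 without one. A lower floor takes in more low intensities. Ptgds, Igf2 and Col1a2 had no value without suffixed probe sets, and Col3a1 and Dcn none when the floor was at the 60th percentile. The median of all genes moved by less than 0.1 in every setting. Signal over background limits Col3a1, Dcn and 4 further probe sets of the members.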
